A study of Saccharomyces cerevisiae with 12 samples.

Results

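The genes described here build and organise the actin cytoskeleton of budding yeast. They comprise 45 genes of Saccharomyces cerevisiae, chosen by name for their known roles and read through 1 array probe set each, out of 5656 genes with a probe set of a single symbol. The list holds 27 genes of cortical actin patches, 8 genes of actin cables and the polarisome, 5 myosins, and 5 genes of actin itself and of monomer turnover. Where a gene had several probe sets, the plain set with the highest mean signal was taken, and all 45 genes had such a set. The arrays followed strain SH121 (MU), whose heat-sensitive tor2 allele lacks the function unique to TOR2, against strain SH100 (WT). TOR2 codes for a protein kinase of growth control. Each side of the comparison is 1 strain, so that the allele and any other difference between the strains cannot be told apart. Cultures in rich glucose medium stayed at 25 °C (the 0 h samples) or spent 2 h or 6 h at 37 °C, and WT cultures went through the same heat shift as MU. Independent duplicate cultures, A and B, gave 2 arrays in each of the 6 groups (MU 0 h, MU 2 h, MU 6 h, WT 0 h, WT 2 h and WT 6 h) and 12 arrays in all.

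Actin filaments in budding yeast form patches and cables. Patches are small branched networks at the cell cortex that drive endocytosis. They are nucleated by the Arp2/3 complex, which is switched on by Las17 and the type I myosins, and are shaped by coat, capping and crosslinking proteins. Cables are bundles of long filaments made by the formins and coated with tropomyosin, along which type V myosins carry secretory vesicles, organelles and mRNA into the bud. The polarisome, with Spa2, Pea2 and Bud6, holds the formin Bni1 at the bud tip. TOR2 is known to be needed for the polarised arrangement of actin during the cell cycle, and the question of the strain comparison was whether RNA levels differed when that function was lost. Each signal is an average over a culture, so that less RNA per cell and fewer cells making it cannot be told apart.

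Signals were on a linear scale with an array median of 72 to 75.8, and duplicate arrays correlated at 0.9705 to 0.9784 (Pearson's r of log2 signals across probe sets). The small heat shock gene HSP12 had signals of 290.3 to 327.2 on the 4 arrays at 0 h and of 2984.3 to 5369.6 on the 8 arrays at 37 °C, so that the temperature labels and the data went together. The TOR2 signal of 178.4 and 190.6 in MU 0 h, against 260.3 and 235.9 in WT 0 h, does not check the strain label, since the allele alters the protein. Arrays MU 0 h A and MU 6 h A stood apart in a control set for 25S ribosomal RNA, with signals of 4697.6 and 3290.6, against 35.6 to 570.2 on the other 10 arrays. The counts of calls and the log2 differences of those of the 45 genes called in MU are therefore given without these arrays as well. Of the 45 genes, 40 had a mean signal above 76.2, the median of the mean signals of all probe sets. The other 5 were the kinases ARK1 and PRK1, the formin BNR1, MYO1 and LAS17. The array number limits the precision, because an exact permutation test of 2 arrays against 2 cannot give a p below 0.33.

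After 6 h at 37 °C in MU, 14 of the 45 genes changed relative to MU 0 h at an adjusted p under 0.05 (limma across 9275 probe sets, Benjamini-Hochberg), with 11 higher and 3 lower. Among all probe sets tested, 10.8% were called higher and 11.4% lower in the same comparison. After 6 h in WT, 4 of the 45 changed, with 2 higher and 2 lower, where 9.83% of all probe sets were higher and 9.55% lower. All 4 were among the 14 in MU, with the same direction: ARC15 and RVS167 higher, SPA2 and ABP140 lower. The other 10 passed in MU and not in WT, but for none did the difference between the strains pass the test. After 2 h, BBC1 and MYO3 were higher in MU and no gene was lower, where 4.88% of all probe sets were higher and 3.11% lower. In WT no gene passed at 2 h, where 5.38% of all probe sets were higher and 3.28% lower. There 6 of the 45 had an unadjusted p under 0.05, against 2305 of 9275 probe sets. Between 6 h and 2 h no gene passed in either strain. In MU 11 of the 45 had an unadjusted p under 0.05 in that comparison, against 1747 of 9275 probe sets. After adjustment 0.291% of all probe sets were called higher and 0.334% lower. In WT 3 of the 45 had an unadjusted p under 0.05, against 1062 of 9275 probe sets. After adjustment 0.0539% of all probe sets were called higher and 0.0108% lower. In all, 30 of the 45 genes were called in no comparison with 0 h, and the matching share of all probe sets was not worked out.

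The MU counts depended on single arrays. Leaving out an array of a compared group leaves 1 array there. Whether calls among all probe sets fell by a like share was not compared. Without array MU 6 h B, 2 of the 14 calls at 6 h remained, ABP1 and ABP140. Without MU 0 h A 3 remained (ABP1, ABP140 and ARC15), and without MU 0 h B 4 remained (ABP1, ABP140, ARK1 and MYO3). With MU 0 h A and MU 6 h A both left out, 5 genes were called, of which ABP1, ABP140, ARC15 and CAP1 were among the 14, with log2 differences of 0.94, -1.02, 1.46 and 1.29. The other 10 of the 14 kept their direction and had adjusted p of 0.0546 to 0.194 (limma). Their log2 differences were then 0.88 for ARC19, 1.44 for VRP1, 0.41 for ENT2, 0.28 for RVS167, 0.89 for TWF1, 1.61 for ARK1, -0.30 for CRN1, -0.90 for SPA2, 0.86 for MYO3 and 0.40 for COF1. At 2 h in MU those of BBC1 and MYO3 were 0.49 and 0.59, neither past the test. In WT, no call at 6 h remained without WT 0 h A or without WT 0 h B, and none of the 4 remained without WT 6 h B. Without WT 6 h A, or without either MU 0 h array, whose spread enters the common fit, ABP140 was the only one of the 4 to remain. At 2 h in MU neither call remained without any 1 of the 4 MU 0 h and MU 2 h arrays.

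**Figure D1:**
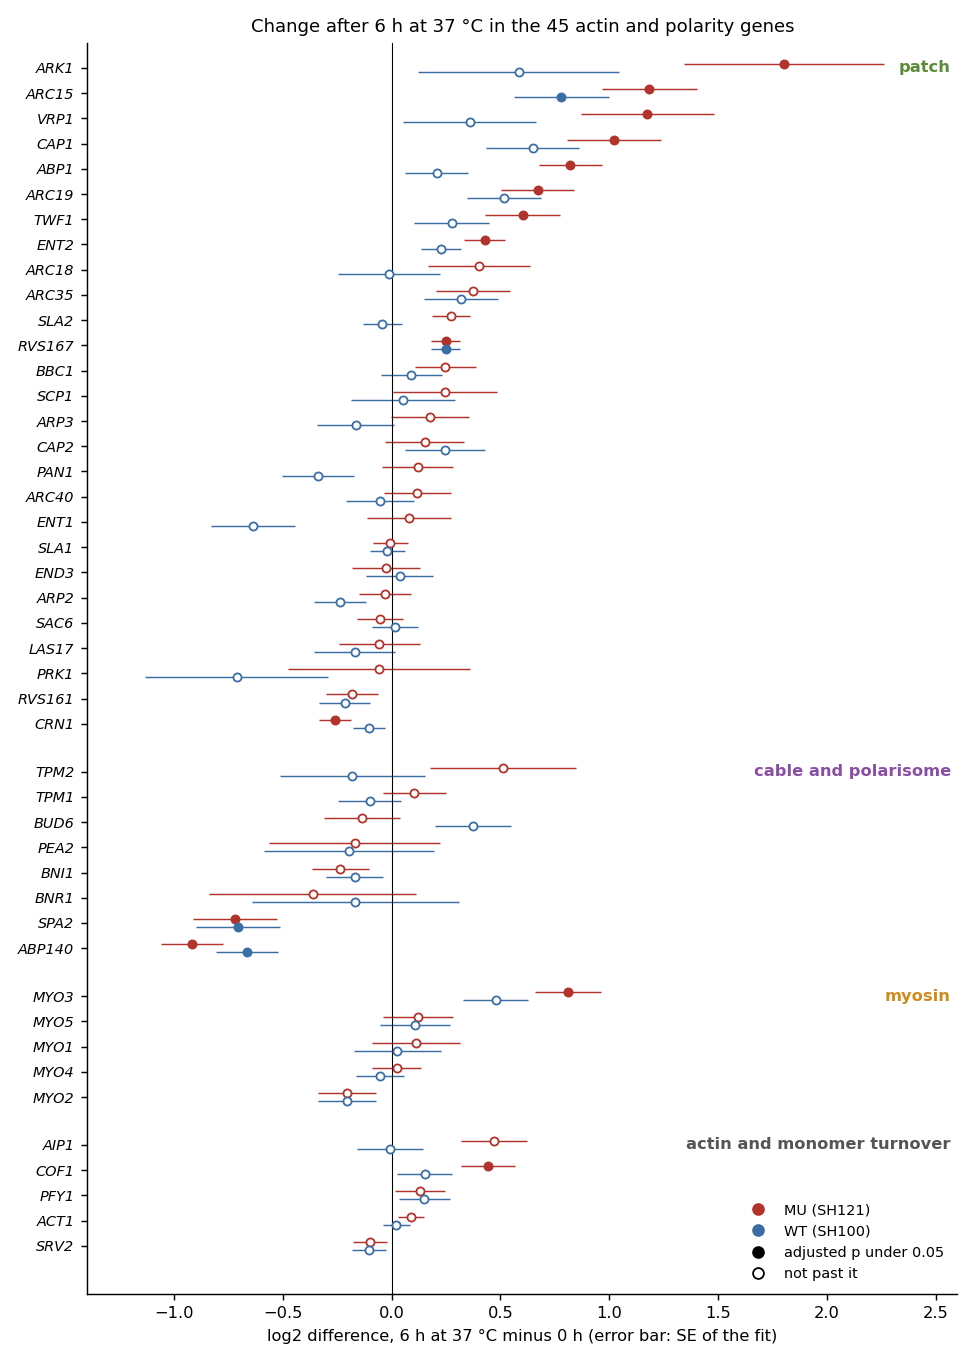
Log2 difference between 6 h at 37 °C and 0 h for each of the 45 genes (horizontal axis, log2 units), by role, in MU (red, upper point of each gene) and WT (blue, lower point). Bars are the standard error of the fit, filled points passed an adjusted p of 0.05. In MU 9 of 27 patch genes are filled on the higher side and 1 on the lower, and SPA2 and ABP140 are lower in both strains.

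By role, at 6 h in MU, 9 patch genes were higher and 1 lower, no cable or polarisome gene was higher and 2 of 8 were lower, 1 of 5 myosins was higher, and 1 of the 5 genes of actin and monomer turnover was higher, where 10.8% of all probe sets were higher and 11.4% lower. At 6 h in WT, 2 patch genes were higher and the same 2 cable and polarisome genes were lower, with no call among the other roles, where 9.83% of all probe sets were higher and 9.55% lower. The median log2 difference of the patch genes was 0.19 at 2 h and 0.25 at 6 h in MU, and 0.06 at 2 h and 0.04 at 6 h in WT. That of the cable and polarisome genes was -0.14 at 2 h and -0.20 at 6 h in MU, and -0.06 at 2 h and -0.18 at 6 h in WT. The myosins had medians of 0.11 at 2 h and 0.11 at 6 h in MU, and 0.13 at 2 h and 0.03 at 6 h in WT. Over all probe sets the medians were -0.03 at 2 h and -0.06 at 6 h in MU, and -0.02 at 2 h and -0.04 at 6 h in WT. With each array left out in turn, the patch median at 6 h in MU lay between 0.13 and 0.32, that of the cable and polarisome genes between -0.24 and -0.18, and that of the myosins between 0.01 and 0.11. No test of a difference between the roles was made, and the medians describe these genes only.

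**Figure D2:**
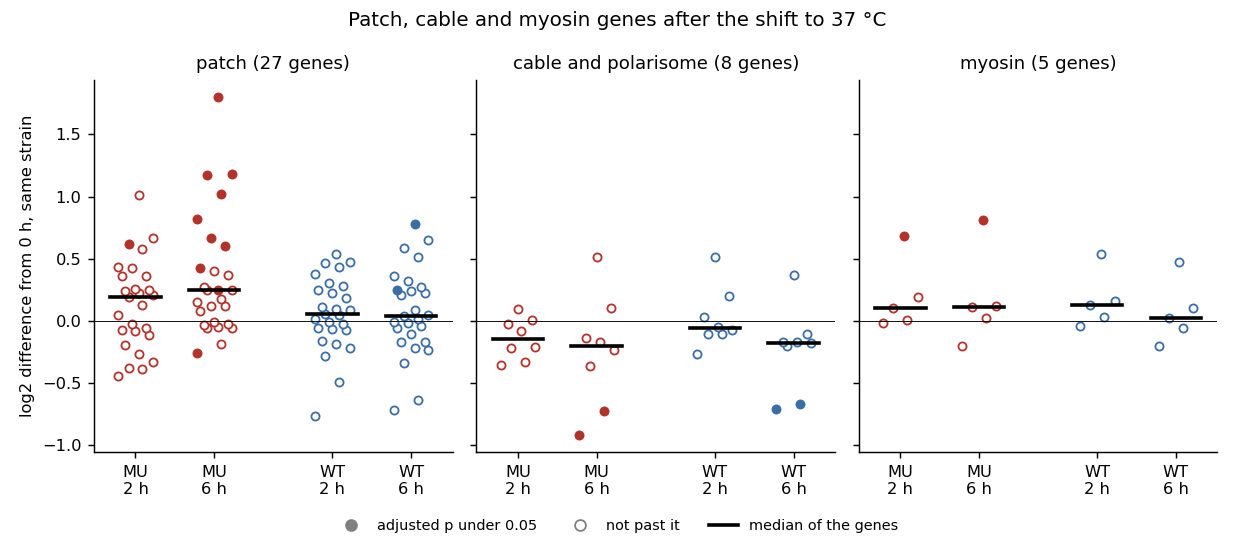
Log2 difference from 0 h of the same strain (vertical axis, log2 units) for patch, cable and polarisome, and myosin genes at 2 h and 6 h in MU (red) and WT (blue). Each point is a gene, filled where the adjusted p was under 0.05, and the black line is the median. The patch median in MU at 6 h is 0.25 and the cable and polarisome median is -0.20.

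Among the patch genes, ABP1, an actin-binding protein that marks patches and activates Arp2/3, gave the call in this role that held in every alternative. Its signal in MU was 246.8 and 279.4 at 0 h, 347.5 and 286.9 at 2 h, and 403.6 and 536.4 at 6 h. In WT it was 284.3 and 276.9 at 0 h, 350.0 and 360.9 at 2 h, and 326.3 and 334.4 at 6 h. Both MU 6 h arrays lay above the other 10. The log2 difference between MU 6 h and MU 0 h was 0.82 (SE 0.14, adjusted p = 0.00667, limma), a 1.77-fold increase, and with single arrays left out it lay between 0.61 and 1.03. In WT it was 0.21 at 6 h (SE 0.14, adjusted p = 0.361, limma).

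Of the 7 Arp2/3 subunits, 2 rose at 6 h in MU (ARC15 and ARC19, against 10.8% of all probe sets) and 1 in WT (ARC15, against 9.83%). ARC15 had signals of 646.9 and 583.1 at 0 h, 954.6 and 719.7 at 2 h, and 1219.2 and 1606.5 at 6 h in MU. In WT it had 588.9 and 606.8 at 0 h, 721.8 and 1086.0 at 2 h, and 1051.8 and 1031.7 at 6 h. In both strains each later time lay above 0 h on every array. It rose by a log2 difference of 1.18 at 6 h in MU (SE 0.22, adjusted p = 0.00833, limma) and of 0.78 at 6 h in WT (SE 0.22, adjusted p = 0.0421, limma), where the WT call was lost in 9 of 20 alternatives. ARC19 rose by 0.67 at 6 h in MU (SE 0.17, adjusted p = 0.0263, limma) and had a log2 difference of 0.52 in WT (adjusted p = 0.0692, limma). The actin-related subunit ARP2, in contrast, had signals of 361.3 and 365.4 in MU 0 h and of 356.0 and 356.9 in MU 6 h, a log2 difference of -0.03 (SE 0.12). The remaining subunits ARP3, ARC18, ARC35 and ARC40 had log2 differences of 0.12 to 0.40 at 6 h in MU and of -0.17 to 0.32 in WT, and none passed. The ratio of ARC15 to ARP2 within an array, on the log2 scale, averaged 1.97 in MU 6 h, against 0.76 in MU 0 h, and 1.64 in WT 6 h, against 0.63 in WT 0 h. The arrays did not overlap in either strain, and this pair was chosen after its values were seen.

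VRP1, the verprolin that binds Las17 and type I myosin, had signals of 220.6 and 264.8 at 0 h, 383.3 and 343.7 at 2 h, and 419.7 and 717.6 at 6 h in MU. In WT it had 263.1 and 281.3 at 0 h, 361.3 and 363.3 at 2 h, and 476.8 and 264.8 at 6 h. The duplicates at 6 h lay far apart in both strains, and in WT 1 of them lay within the 0 h range. The log2 difference at 6 h in MU was 1.18 (SE 0.30, adjusted p = 0.0293, limma), and it was 0.79 without MU 6 h B and no longer passed. The activator LAS17 itself had signals of 60.1 to 96.2 on all 6 MU arrays, with a log2 difference of -0.06 at 6 h (SE 0.19). PAN1, END3 and SLA1, which form a coat complex of the patch, had log2 differences at 6 h of -0.03 to 0.12 in MU and of -0.34 to 0.04 in WT. BBC1, a patch protein that restrains Las17, rose at 2 h in MU by 0.62 (SE 0.14, adjusted p = 0.0354, limma), with signals of 512.8 and 471.7 in MU 2 h, against 290.5 and 349.5 in MU 0 h. A second BBC1 probe set gave a log2 difference of 0.55 in that comparison and did not pass (adjusted p = 0.115, limma). In WT the first set had signals of 368.8 and 420.7 at 2 h, against 322.7 and 334.9 at 0 h, and was not called.

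Actin capping protein is a dimer of Cap1 and Cap2 that closes the growing ends of filaments. CAP1 had signals of 237.8 and 244.1 at 0 h, 434.2 and 340.9 at 2 h, and 403.3 and 597.7 at 6 h in MU. In WT it had 249.4 and 196.3 at 0 h, 322.5 and 307.6 at 2 h, and 397.4 and 314.7 at 6 h. All arrays at 37 °C lay above all arrays at 0 h. The log2 difference of CAP1 at 6 h was 1.02 in MU (SE 0.21, adjusted p = 0.0137, limma) and 0.65 in WT (SE 0.21, adjusted p = 0.0713, limma). The partner CAP2 had signals of 166.8 and 150.6 in MU 6 h, against 131.4 and 153.4 in MU 0 h, and a log2 difference of 0.15 (SE 0.18). The log2 ratio of CAP1 to CAP2 within an array averaged 1.63 in MU 6 h, against 0.76 in MU 0 h, and 1.23 in WT 6 h, against 0.84 in WT 0 h. This pair was likewise chosen after its values were seen. TWF1, the twinfilin that binds actin monomers and capping protein, rose at 6 h in MU by 0.60 (SE 0.17, adjusted p = 0.0409, limma). That call was lost in 11 of 20 alternatives, and the log2 difference was 0.38 without MU 6 h B. In WT TWF1 had signals of 472.2 and 433.6 at 6 h, against 340.0 and 398.7 at 0 h, and was not called.

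Kinases, membrane-bending and bundling proteins of the patch gave mixed results. Ark1 and Prk1 are related kinases that phosphorylate coat proteins and end a patch's growth. ARK1 was dim, with signals of 5.2 and 12.2 at 0 h, 13.6 and 20.5 at 2 h, and 21.9 and 37.3 at 6 h in MU, and of 15.1 and 11.7 at 0 h, 24.3 and 16.4 at 2 h, and 25.7 and 18.4 at 6 h in WT. At 6 h in MU it rose by 1.80 (SE 0.46, adjusted p = 0.0277, limma), a difference that became 0.87 with 16 signal units added to every value before taking log2. PRK1, dim as well, had a log2 difference of -0.06 (SE 0.42) in MU and of -0.71 (SE 0.42, adjusted p = 0.28, limma) in WT at 6 h. RVS167, the amphiphysin that pinches off vesicles, rose by 0.25 at 6 h in MU (SE 0.07, adjusted p = 0.034, limma) and by 0.25 in WT (SE 0.07, adjusted p = 0.0384, limma). The MU call was lost in 8 of 20 alternatives and the WT call in 12. Its partner RVS161 had log2 differences of -0.18 in MU and -0.22 in WT at 6 h, neither past the test. CRN1, coronin, fell at 6 h in MU, with signals of 331.5 and 311.5 in MU 6 h, against 386.3 and 383.0 in MU 0 h, a log2 difference of -0.26 (SE 0.07, adjusted p = 0.0419, limma). That call was lost in 16 of 20 alternatives. In WT CRN1 had signals of 307.0 and 344.4 at 6 h, against 341.5 and 347.4 at 0 h, and was not called. The bundling proteins SAC6 (fimbrin) and SCP1 (calponin-like) had log2 differences of -0.05 and 0.25 in MU, neither past the test.

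**Figure D3:**
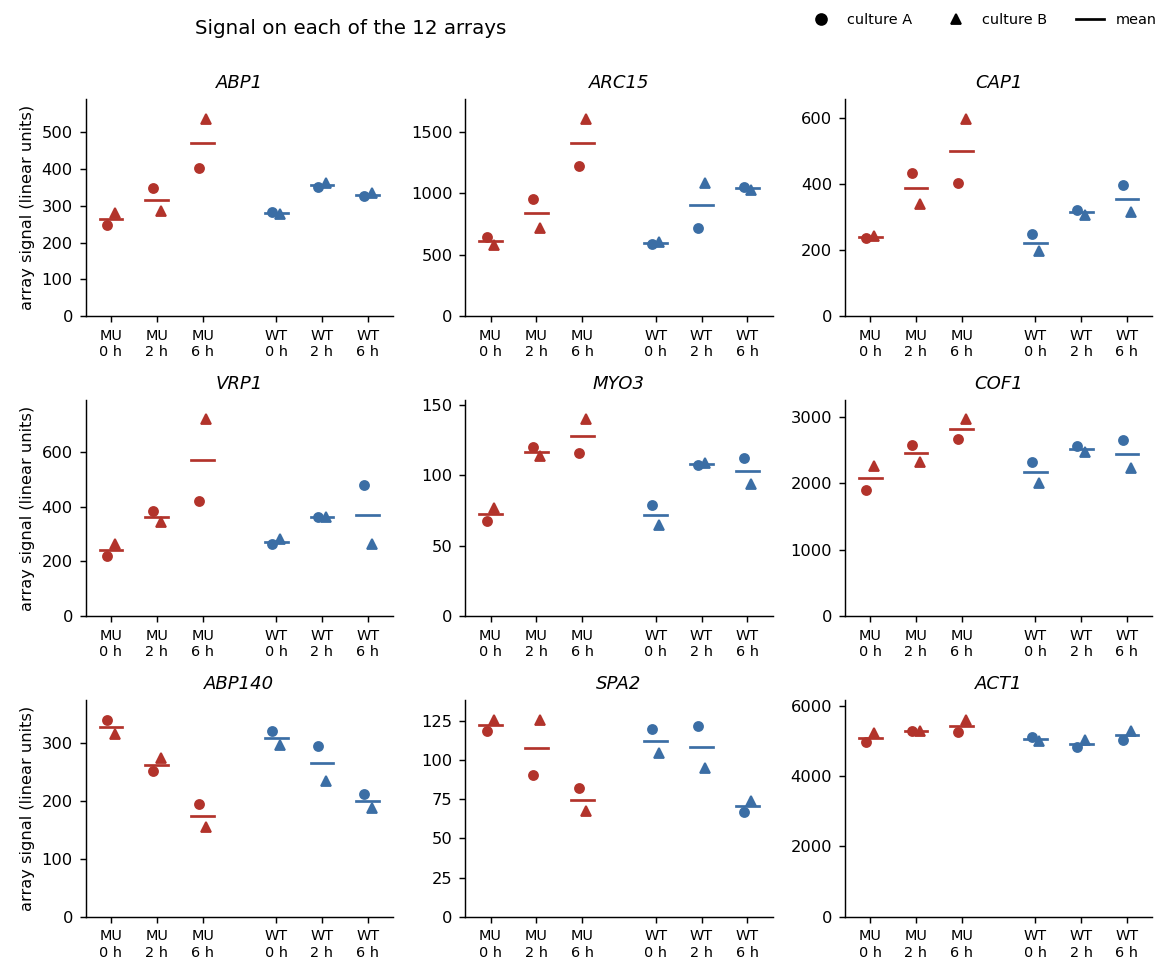
Array signal (vertical axis, linear units from 0) of 9 genes on the 12 arrays, MU on the left (red) and WT on the right (blue) at 0 h, 2 h and 6 h. Circles are culture A, triangles culture B, and the line is the mean. For ABP1, ARC15, CAP1, VRP1, MYO3 and COF1 the highest of the 12 arrays is MU 6 h B, while ABP140 has its lowest value there and ACT1 stays between 4824.0 and 5605.0.

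Among the cable and polarisome genes, ABP140, an actin-binding protein that marks cables, fell in both strains. Its signal in MU was 340.5 and 314.9 at 0 h, 251.7 and 273.3 at 2 h, and 193.9 and 155.7 at 6 h. In WT it was 321.4 and 296.8 at 0 h, 295.2 and 235.2 at 2 h, and 211.6 and 187.1 at 6 h. In each strain the arrays of the 3 times followed each other without overlap. The log2 difference at 6 h was -0.92 in MU (SE 0.14, adjusted p = 0.00405, limma) and -0.66 in WT (SE 0.14, adjusted p = 0.0165, limma). The call in MU held in all 20 alternatives. A second ABP140 probe set gave -0.91 in MU (adjusted p = 0.00361, limma) and -1.03 in WT (adjusted p = 0.00247, limma) at 6 h, and it also passed at 2 h in WT, with -0.58 (adjusted p = 0.0411, limma). The change at 6 h in MU minus that in WT was -0.25 on the log2 scale with a 95% interval of -0.72 to 0.21, and it was 0.12 for the second probe set.

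SPA2, the scaffold of the polarisome, had signals of 118.5 and 125.7 at 0 h, 90.1 and 125.2 at 2 h, and 81.9 and 67.3 at 6 h in MU. In WT it had 119.7 and 104.5 at 0 h, 121.7 and 94.9 at 2 h, and 66.9 and 74.0 at 6 h. The 6 h arrays lay below the 0 h and 2 h arrays in both strains. The log2 difference at 6 h was -0.72 in MU (SE 0.19, adjusted p = 0.0333, limma) and -0.71 in WT (SE 0.19, adjusted p = 0.0401, limma), and none of the other SPA2 probe sets passed in a comparison with 0 h. Its partner PEA2 had log2 differences of -0.17 (SE 0.39) in MU and -0.20 (SE 0.39) in WT at 6 h. The formin-binding BUD6 had log2 differences of -0.14 in MU and 0.37 in WT (SE 0.17 each), neither past the test. The formin BNI1 had signals of 306.9 and 289.1 in MU 6 h, against 356.9 and 342.0 in MU 0 h, with no overlap and a log2 difference of -0.24 (SE 0.13, adjusted p = 0.245, limma). The second formin, BNR1, had signals of 2.6 to 8.0 on all 12 arrays and therefore gave little information, with an SE of 0.48. The main tropomyosin TPM1 had signals of 448.3 to 583.2 in MU and 479.9 to 673.5 in WT, with log2 differences at 6 h of 0.10 in MU and -0.10 in WT (SE 0.14 each). The minor tropomyosin TPM2 had signals of 66.5 and 127.2 at 0 h, 119.3 and 81.8 at 2 h, and 159.0 and 109.0 at 6 h in MU, and its duplicates differed as much as the groups did.

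Of the myosins only MYO3, a type I myosin of patches, was called. Its signal in MU was 67.5 and 77.0 at 0 h, 119.8 and 113.5 at 2 h, and 116.0 and 139.6 at 6 h. In WT it was 78.6 and 64.7 at 0 h, 107.2 and 108.8 at 2 h, and 112.4 and 93.7 at 6 h. All 8 arrays at 37 °C lay above all 4 at 0 h. It rose in MU by 0.68 at 2 h (SE 0.15, adjusted p = 0.034, limma) and by 0.81 at 6 h (SE 0.15, adjusted p = 0.00868, limma). In WT the log2 differences were 0.54 at 2 h (adjusted p = 0.068, limma) and 0.48 at 6 h (adjusted p = 0.0626, limma). The other type I myosin, MYO5, overlaps with Myo3 in function. It had signals of 311.9 and 435.9 in MU 6 h, against 322.8 and 354.4 in MU 0 h, and of 360.9 and 396.6 in WT 6 h, against 327.1 and 361.8 in WT 0 h, with log2 differences of 0.12 and 0.11 (SE 0.16 each).

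The type V myosins MYO2, which carries vesicles and organelles along cables, and MYO4, which carries mRNA, were not called. MYO2 had signals of 781.1 and 710.5 in MU 6 h, against 867.1 and 843.2 in MU 0 h, and of 600.5 and 807.2 in WT 6 h, against 845.8 and 732.2 in WT 0 h. The log2 difference of MYO2 was -0.20 in each strain (SE 0.13), with separate arrays in MU and overlapping arrays in WT. MYO4 had signals of 341.8 to 356.6 on the 6 MU arrays, so that its log2 difference at 6 h was 0.02 (SE 0.11), and of 289.3 to 375.1 on the 6 WT arrays. MYO1, the type II myosin of the cytokinetic ring, had signals of 41.0 to 59.5 on all 12 arrays and a log2 difference of 0.11 in MU and 0.03 in WT at 6 h (SE 0.20 each). If the myosins are placed with the structures they serve, MYO3 and MYO5 with the patch and MYO2 and MYO4 with the cable, the only call joins the patch genes.

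In the group of actin and monomer turnover, ACT1, the single actin gene of this yeast, was called in no comparison. Its signal in MU was 4977.2 and 5211.2 at 0 h, 5277.7 and 5277.8 at 2 h, and 5242.9 and 5605.0 at 6 h. In WT it was 5114.5 and 5004.5 at 0 h, 4824.0 and 5022.7 at 2 h, and 5022.2 and 5289.9 at 6 h. The log2 difference at 6 h was 0.09 in MU with a 95% interval of -0.05 to 0.23, and 0.02 in WT (SE 0.06 each). The ACT1 control sets on the array gave a ratio of the 3′ set to the 5′ set of 1.33 to 1.56, with 1.56 and 1.51 in MU 6 h, against 1.42 and 1.49 in MU 0 h. The part of RNA quality in the results was not tested. COF1, the cofilin that severs filaments, rose at 6 h in MU, with signals of 2662.9 and 2965.5 in MU 6 h, against 1894.0 and 2256.9 in MU 0 h, a log2 difference of 0.44 (SE 0.12, adjusted p = 0.0396, limma). In WT COF1 had a log2 difference of 0.15 (adjusted p = 0.445, limma). The call in MU was lost in 11 of 20 alternatives. AIP1, which works with cofilin, had a log2 difference of 0.47 at 6 h in MU (SE 0.15, adjusted p = 0.0619, limma) and of -0.01 in WT. Profilin (PFY1) and the cyclase-associated protein SRV2 had log2 differences of 0.13 and -0.10 in MU, neither past the test.

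Pairs of related genes were set side by side through the ratio of their signals within each array, which removes any factor common to an array. The log2 ratio of MYO3 to MYO5 averaged -1.53 in MU 6 h, against -2.23 in MU 0 h, with no overlap. In WT it averaged -1.88 at 6 h, against -2.27 at 0 h, with overlapping arrays. Both genes code for type I myosins, and the ratio moved with MYO3. The epsins ENT1 and ENT2 bind membrane and clathrin at the forming patch. The log2 ratio of ENT2 to ENT1 averaged 1.22 in MU 6 h, against 0.88 in MU 0 h, and 1.51 in WT 6 h, against 0.65 in WT 0 h, with no overlap in either strain. ENT2 had signals of 310.5 and 314.5 at 0 h, 425.9 and 382.5 at 2 h, and 424.4 and 417.1 at 6 h in MU, and of 322.9 and 294.0 at 0 h, 362.3 and 389.7 at 2 h, and 396.0 and 341.4 at 6 h in WT. It rose at 6 h in MU by 0.43 (SE 0.09, adjusted p = 0.0159, limma). ENT1 had signals of 162.2 and 178.2 at 0 h, 132.3 and 120.8 at 2 h, and 152.3 and 214.1 at 6 h in MU, and of 210.6 and 183.9 at 0 h, 146.2 and 142.5 at 2 h, and 151.1 and 110.1 at 6 h in WT. Its log2 difference at 6 h was 0.08 in MU and -0.64 in WT (SE 0.19 each, adjusted p = 0.813 and 0.0542, limma).

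For ARK1 and PRK1 the mean log2 ratio was 1.37 in MU 6 h, against -0.50 in MU 0 h, and 0.95 in WT 6 h, against -0.35 in WT 0 h. The arrays did not overlap, but both genes lay among the dimmest 25% of probe sets. The log2 ratio of MYO2 to MYO4 averaged 1.07 in MU 6 h, against 1.30 in MU 0 h, and 1.08 in WT 6 h, against 1.23 in WT 0 h. The arrays of the 2 times were separate in each strain, with a shift of -0.22 in MU and -0.15 in WT. At 2 h in WT the ratio moved the other way, to 1.43, a shift of 0.20. The ratios of TPM2 to TPM1 and of BNI1 to BNR1 overlapped between 0 h and both later times in both strains. No test was run on the ratios.

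**Figure D4:**
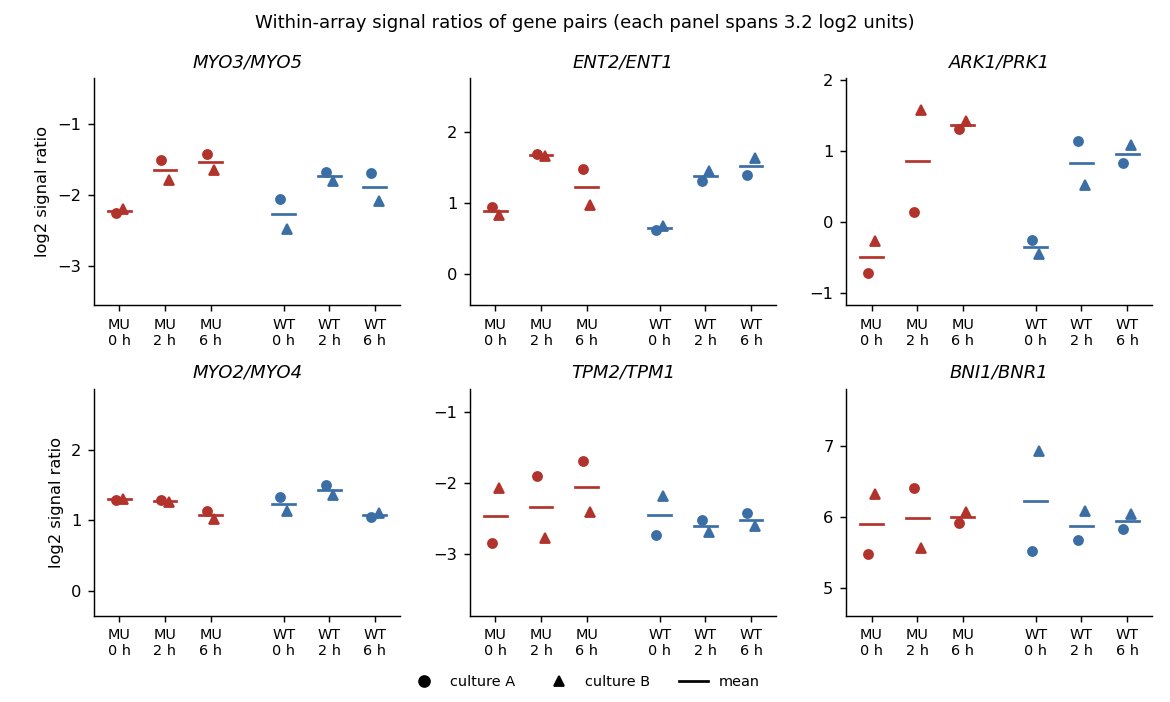
Log2 ratio of the signals of 2 related genes within each array (vertical axis, log2 units, the same span in every panel) for 6 pairs, MU on the left (red) and WT on the right (blue). Circles are culture A, triangles culture B, lines the mean. The ratios MYO3/MYO5, ENT2/ENT1 and ARK1/PRK1 are higher at 6 h than at 0 h in the mean of both strains, with overlap for MYO3/MYO5 in WT, and TPM2/TPM1 and BNI1/BNR1 overlap.

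At no time did any of the 45 genes differ between MU and WT at an adjusted p under 0.05 (limma). At 0 h, 1 of the 45 had an unadjusted p under 0.05, against 430 of 9275 probe sets. After adjustment 0.0108% of all probe sets were called higher and 0.0216% lower in MU. At 2 h 4 of the 45 had an unadjusted p under 0.05, against 508 of 9275 probe sets. At 6 h 3 of the 45 had one, against 806 of 9275. After adjustment 0% of all probe sets were called higher and 0% lower at either time. The change in MU minus the change in WT was called for 0% of all probe sets in either direction at both times. Of the 45 genes, 1 at 2 h and 3 at 6 h had an unadjusted p under 0.05 for that difference. Of all 9275 probe sets, 382 at 2 h and 466 at 6 h had one. The median 95% interval reached 0.36 log2 units to either side of the estimate for the strain comparisons, and 0.51 for the difference between changes. At 6 h, 40 of the 45 intervals of MU against WT lay within a log2 difference of 1 on either side of 0.

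The 3 genes with the lowest p were ABP1, BUD6 and ENT1. ABP1 had signals of 403.6 and 536.4 in MU 6 h, against 326.3 and 334.4 in WT 6 h. The log2 difference was 0.50 with a 95% interval of 0.17 to 0.83 (adjusted p = 0.446, limma), and the increase at 6 h in MU exceeded that in WT by 0.61 (0.14 to 1.08, adjusted p = 0.951, limma). BUD6 differed most at 25 °C, with signals of 137.6 and 142.1 in MU 0 h, against 87.3 and 112.4 in WT 0 h. Its log2 difference was 0.47 (0.07 to 0.88, adjusted p = 1, limma), and at 2 h it was 124.8 and 159.7 in MU, against 164.4 and 130.7 in WT. At 6 h it was 133.4 and 122.0 in MU, against 137.0 and 126.5 in WT. For ENT1 the change at 6 h in MU minus that in WT was 0.72 (0.09 to 1.35, adjusted p = 0.951, limma). With MU 0 h A and MU 6 h A left out, the difference was 0.71 for ABP1 at 6 h and 0.49 for BUD6 at 0 h, and the difference between changes was 0.90 for ENT1. None of these passed the correction over all probe sets.

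**Figure D5:**
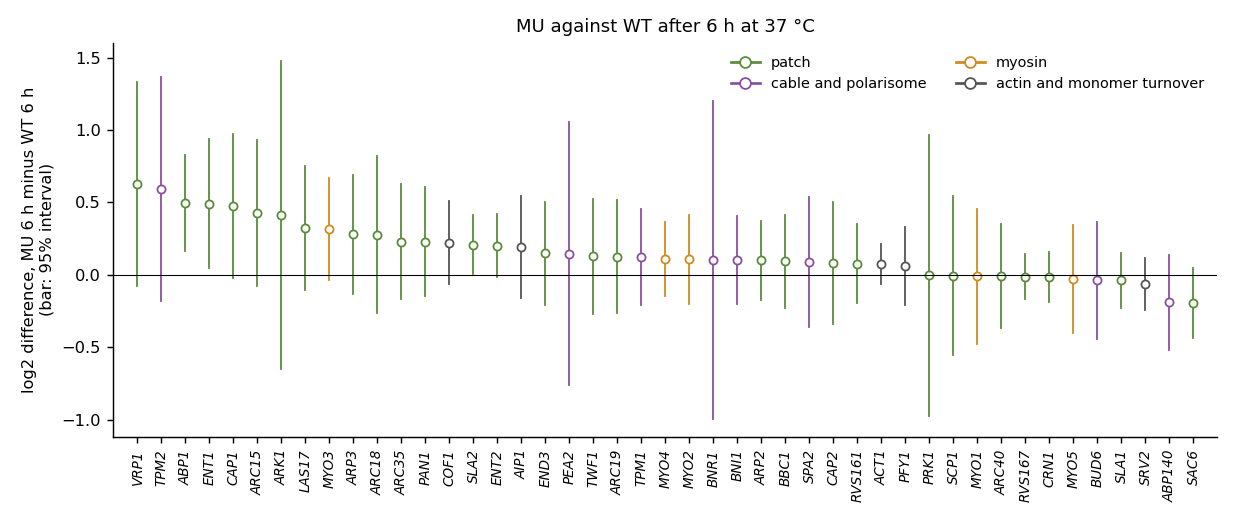
Log2 difference between MU and WT after 6 h at 37 °C (vertical axis, log2 units) for each of the 45 genes, in order of size and coloured by role. Bars are 95% intervals of the fit. The estimates run from -0.19 to 0.63, 33 of 45 lie above 0, and none passed the adjusted threshold.

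As a description, 33 of the 45 log2 differences between MU 6 h and WT 6 h lay above 0, against 4316 of 9275 for all probe sets. The patch genes had a median of 0.15, the cable and polarisome genes of 0.10 and the myosins of 0.11. At 0 h the medians were -0.06 for patch, 0.11 for cable and polarisome and -0.02 for myosin genes. At 2 h they were -0.05, 0.00 and 0.03 in the same order. The change at 6 h in MU minus that in WT was above 0 for 23 of 27 patch genes, including all 7 Arp2/3 subunits, for 3 of 8 cable and polarisome genes and for 4 of 5 myosins, against 4384 of 9275 probe sets. Array MU 6 h B moved with these values. It held the highest of the 12 signals for 18 of the 45 genes, or 40.0%, against 12.8% of all probe sets. With each array left out in turn, the patch median of MU against WT at 6 h lay between 0.05 (without MU 6 h B) and 0.25, against 0.15 with all arrays. Across the 45 genes the changes at 6 h in MU and in WT, which share no array, had a Pearson's r of 0.772 (all probe sets, 0.681), and 32 of 45 had the same sign (71.1%, against 78.0% of all probe sets).

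Rank Difference Analysis of Microarrays (RDAM), the rank-based method of the study, was rebuilt from its description and run at a false discovery rate of 10%, so that its selections may differ from those of the original program. It selected 7 of the 45 genes at 2 h in MU, where it selected 18.5% of all probe sets, and 10 at 6 h in MU, against 20.8%. In WT it selected 2 at 2 h, against 13.9%, and 6 at 6 h, against 21.5%. The 10 genes at 6 h in MU were all among the 14 of limma, with ENT2, RVS167, CRN1 and COF1 not selected. At 2 h in MU it took VRP1, ENT2, CAP1, ARP3 and ARC15 in addition to BBC1 and MYO3, all increased, and at 2 h in WT CAP1 and ARC15. At 6 h in WT it took CAP1, ARC19 and ARC15 as increased and SPA2, ABP140 and ENT1 as decreased. None of the 45 was selected between 6 h and 2 h, with 1.94% of all probe sets in MU and 0.364% in WT, or between MU and WT, with 0.0107% at 0 h, 0.161% at 2 h and 0.0964% at 6 h.

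Neighbouring gene groups give the setting. Of 18 further genes of endocytic patches, 5 were higher and none lower at 6 h in MU, and 3 were higher and none lower in WT. Of all probe sets 10.8% were higher and 11.4% lower in MU, and 9.83% higher and 9.55% lower in WT. PIN3, a Las17-binding protein also named Lsb2, had signals of 550.5 and 793.4 in MU 6 h, against 232.1 and 246.7 in MU 0 h, and rose by 1.46 (SE 0.25, adjusted p = 0.00599, limma). In WT PIN3 had signals of 588.4 and 371.4 at 6 h, against 306.6 and 296.5 at 0 h. YSC84, an actin-binding patch protein, rose by 1.35 in MU (SE 0.17, adjusted p = 0.00156, limma) and by 1.58 in WT (SE 0.17, adjusted p = 0.000945, limma) at 6 h. YAP1801, a clathrin assembly protein, rose by 0.98 in MU (adjusted p = 0.014, limma) and by 0.72 in WT (adjusted p = 0.0465, limma; SE 0.21 each), and the WT call was lost in 11 of 19 alternatives. Of 11 genes of septins and the cytokinesis ring, the septins CDC10 and CDC12 were lower at 6 h in MU, with log2 differences of -0.53 (SE 0.14) and -0.71 (SE 0.22), and no gene passed in WT, with the same shares of all probe sets. These calls were lost in 11 and 10 of 19 alternatives. CDC12 had signals of 70.6 and 72.7 in MU 6 h, against 113.1 and 121.0 in MU 0 h, and of 74.4 and 74.8 in WT 6 h, against 94.1 and 119.4 in WT 0 h. Here too no difference between the strains' changes passed the test.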

How the data were processed

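Total RNA of 12 cultures was hybridised to Affymetrix S98 one-colour arrays. The authors analysed the scans with MAS 5.0 and processed the output with Matlab scripts, and the deposited values are linear intensity signals between 1 and 12860.1, 1 per probe set. How they scaled the arrays was not stated in the sources used here. The array platform annotation named the probe sets, and 60 control sets were left out, leaving 9275. Signals were quantile-normalized, taken to log2 and fitted with limma 3.58.1 (R 4.3.3) as 6 groups with a variance trend and 6 residual degrees of freedom. Duplicate cultures are the replicates, grouped by the sample labels. Differences are given as log2 with Benjamini-Hochberg adjustment over all probe sets in each of 11 comparisons. RDAM was written in Python 3.11.15 and run on all 9335 probe sets. Both scripts were tested on simulated data. Alternatives were median scaling, no further normalization, an offset of 16, leaving out the dimmest 25% of probe sets, no variance trend, a replicate block, other probe sets, reassigned myosins, each array left out, and, chosen after seeing the data, MU 0 h A and MU 6 h A left out together and a crossed block. Duplicate letters were not used to pair samples in the main fit. Deviations of same-letter arrays correlated between groups at -0.104 to 0.119, highest between MU 0 h and MU 6 h. Whether the letters mark a shared step was not tested. The genes, roles and lists were chosen with earlier results of these data known. Signals on every array were planned for ACT1, the 3 largest called changes of each role, the 3 lowest p between strains and the 6 pairs. For some of these genes only part of the signals, a range or none is printed. The signals of CAP1, and the neighbouring genes named, up to 3 per list, were added by their values. A further list of neighbouring genes is not reported here. All p-values measure the spread between duplicate cultures.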

Additional observations from a re-analysis of the deposited data

Results flagged for a closer look

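The control set for 25S ribosomal RNA lies outside the genes compared. Its signal was 4697.6 on MU 0 h A and 3290.6 on MU 6 h A, against 322.8 on MU 0 h B and 431.4 on MU 6 h B, 122.4 and 185.2 in MU 2 h, and 35.6 to 570.2 on the 6 WT arrays. The spiked controls DapX-3, PheX-3, ThrX-3 and LysX-3 were also highest on MU 0 h A and MU 6 h A, while BioC-3 and BioB-3 were not. DapX-3 had 270.1 on MU 0 h A and 213.7 on MU 6 h A, against 88.5 to 168.3 on the other 10 arrays. BioC-3 had 201.1 on MU 0 h A and 189.8 on MU 6 h A, and was highest on MU 6 h B with 227.6. ACT1 had signals of 4977.2 and 5242.9 on the same arrays, against 4824.0 to 5605.0 on the other 10. With both arrays left out, MU 0 h and MU 6 h have no duplicate, and calls among all probe sets were not compared. A lower count of calls then cannot be laid to these arrays or to these genes. The 14 genes called at 6 h in MU with all arrays kept the direction of their log2 differences. No explanation was tested.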

How the results depend on the processing

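The 20 calls of single genes among the 45 kept their direction in all alternatives, and 2 of them, ABP1 and ABP140 at 6 h in MU, also kept an adjusted p under 0.05 in all 20. Of the counts of genes called, 204 values stayed within 1.5 times the original or were equal to it and 26 did not. Most of the 204 belong to comparisons with no call to begin with, where 0 stayed 0. Nearly all of the 26 belong to comparisons that had a call, so that the tally does not measure how stable the calls were. At 2 h in MU the count of 2 became 1 without the variance trend, 0 with the replicate block, 7 by RDAM, 0 with MU 0 h A and MU 6 h A left out, and 0 to 3 with each array left out. At 6 h in MU the count of 14 became 5 with those arrays left out and 2 to 13 with each array left out, lowest without MU 6 h B. Between 6 h and 2 h in MU it was 0 to 2 with each array left out, where ABP1 and RVS167 passed without MU 6 h A. At 2 h in WT RDAM gave 2 in place of 0. At 6 h in WT the count of 4 became 2 without the variance trend, 2 with the replicate block, 2 with MU 0 h A and MU 6 h A left out, and 0 to 6 with each array left out. The crossed replicate block gave 0 calls for MU 2 h against WT 2 h, as did the uncrossed block. The fit without a block had 0 calls there too, so that this result cannot show whether the letters pair cultures. Leaving out an array of a compared group takes away its duplicate, and whether calls among all probe sets fell by a like share was not compared. The cause of a changed count was not tested where fewer arrays do not give the change by construction.

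Of the medians of the 3 roles, 396 values moved by less than the spread between duplicates and 24 by more. For myosin genes the median at 6 h in MU was 0.0405 with MU 0 h A and MU 6 h A left out and 0.0223 with other probe sets, and the median at 2 h in WT was 0.199 without further normalization and 0.165 with other probe sets. With MYO1 alone in the role the median of MU against WT was -0.0945 at 0 h and -0.0094 at 6 h. The cable and polarisome median of MU against WT at 6 h was 0.0264 with MU 0 h A and MU 6 h A left out. With each array left out, the patch medians lay between 0.0969 and 0.192 at 2 h in MU, between -0.0199 and 0.163 at 6 h in WT and between -0.0634 and 0.0188 for MU against WT at 2 h. Those of cable and polarisome genes lay between 0.0251 and 0.141 for MU against WT at 0 h and between 0.0131 and 0.170 at 6 h. Those of myosins lay between -0.0051 and 0.207 at 2 h in MU, 0.0124 and 0.112 at 6 h in MU, 0.106 and 0.207 at 2 h in WT, -0.0302 and 0.135 at 6 h in WT, -0.0653 and 0.102 for MU against WT at 2 h and -0.0814 and 0.189 at 6 h. Dim probe sets such as ARK1, PRK1 and BNR1 limit what the arrays show of those genes.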
